A study of Mus musculus with 45 samples.

Results

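Imprinted genes are transcribed mainly or only from the allele inherited from the mother or from the allele inherited from the father. The 10 genes described here were chosen by symbol from among well-known imprinted genes, with the FPKM and expected counts of all 18 libraries already known, and all 10 were found among the 55385 genes of the expression tables. The maternally expressed genes are *H19*, *Igf2r*, *Cdkn1c*, *Grb10* and *Meg3*, and the paternally expressed genes are *Igf2*, *Peg3*, *Peg10*, *Mest* and *Plagl1*. Their values are therefore given as a description, without p-values. Where a gene of the 10 is said below to be called, this records only on which side of the thresholds its values fell in a fit over all genes, and nothing is supported with it. Alleles were not separated, and each value is the total over both parental copies.

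RNA was sequenced from 18 libraries of mouse embryos and embryonic stem cells that all carried *Gabpa*-dTAG on both alleles, controls included. The tag is a degron fused to the ETS-family transcription factor GABPA, and the small molecule dTAG13 binds it and brings about the degradation of the fused protein. Embryos came from in vitro fertilization, with dams of 7 to 8 weeks and sires of 8 to 12 weeks from knock-in chimeras backcrossed to C57BL/6J. They were cultured with 1 μM dTAG13 or with DMSO, the vehicle. The late two-cell groups (3 DMSO and 3 dTAG13 libraries) were treated from the zygote on, the morula groups (2 and 2) from the four-cell stage on, and the E4.5 ICM groups (2 and 2) from the early blastocyst on. The study removed trophectoderm by immunosurgery and describes the remaining ICM as epiblast and primitive endoderm together. Trophectoderm markers were detected in the ICM libraries of both treatments, and their sums are given below. The 2iES groups (2 and 2) are E14-derived stem cells from a picked clone, grown in 2i/LIF and treated with 0.5 μM dTAG13 or DMSO for 24 h.

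Most imprints are differences in DNA methylation between the parental copies that are laid down in the germ line and kept through the demethylation of the early embryo. Many imprinted clusters have a control region where that methylation differs, and neighbouring genes often answer to the same region. *Igf2* and *H19* form such a cluster, *Meg3* lies in the *Dlk1*-*Dio3* cluster, and *Igf2r* shares its locus with the noncoding RNA *Airn*. Many imprinted genes act on growth: *Igf2* encodes a growth factor, *Igf2r* a receptor that clears it, *Cdkn1c* an inhibitor of cyclin-dependent kinases and *Grb10* an adaptor that dampens signalling from growth factor receptors. *Peg3* and *Plagl1* encode zinc-finger proteins, *Peg10* derives from a retrotransposon and is needed in the placenta, *Mest* encodes a hydrolase-like protein, and *H19* and *Meg3* are long noncoding RNAs.

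On GRCm38 the genes lie on chromosome 7 (*H19*, 142575529 to 142578143, minus strand; *Igf2*, 142650766 to 142666816, minus; *Cdkn1c*, 143458339 to 143461050, minus; *Peg3*, 6703892 to 6730431, minus), chromosome 6 (*Peg10*, 4747306 to 4760517, plus; *Mest*, 30723547 to 30748465, plus), chromosome 17 (*Igf2r*, 12682406 to 12769664, minus), chromosome 11 (*Grb10*, 11930508 to 12038683, minus), chromosome 10 (*Plagl1*, 13060504 to 13131694, plus) and chromosome 12 (*Meg3*, 109541001 to 109571726, plus). Promoter windows were read from RefSeq (GRCm38.p6) as the 250 bases before each annotated start. Of the 10 genes, 7 had an entry, with 14 starts in all. The windows below belong to the genes with the clearest changes in the E4.5 ICM, and show how far their promoters differ in CpG content. Capitals mark each CG.
Grb10, chr11:12037421-12037670 (minus strand): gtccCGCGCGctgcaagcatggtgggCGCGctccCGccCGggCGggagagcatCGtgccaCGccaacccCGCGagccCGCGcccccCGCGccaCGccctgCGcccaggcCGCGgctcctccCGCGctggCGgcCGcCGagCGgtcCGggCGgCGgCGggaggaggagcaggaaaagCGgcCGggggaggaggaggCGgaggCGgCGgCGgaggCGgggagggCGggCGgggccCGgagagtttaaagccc
Grb10, chr11:12027972-12028221 (minus strand): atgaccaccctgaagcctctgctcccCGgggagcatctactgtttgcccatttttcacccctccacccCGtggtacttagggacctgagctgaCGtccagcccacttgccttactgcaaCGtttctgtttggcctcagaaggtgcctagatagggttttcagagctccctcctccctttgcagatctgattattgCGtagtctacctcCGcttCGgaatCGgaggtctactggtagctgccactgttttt
Mest, chr6:30737800-30738049 (plus strand): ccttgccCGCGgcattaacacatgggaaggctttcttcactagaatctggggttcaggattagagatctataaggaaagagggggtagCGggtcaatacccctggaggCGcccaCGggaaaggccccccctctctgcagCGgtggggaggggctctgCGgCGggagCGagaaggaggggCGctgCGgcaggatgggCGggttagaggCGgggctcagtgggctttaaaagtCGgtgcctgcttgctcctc
Meg3, chr12:109540746-109540995 (plus strand): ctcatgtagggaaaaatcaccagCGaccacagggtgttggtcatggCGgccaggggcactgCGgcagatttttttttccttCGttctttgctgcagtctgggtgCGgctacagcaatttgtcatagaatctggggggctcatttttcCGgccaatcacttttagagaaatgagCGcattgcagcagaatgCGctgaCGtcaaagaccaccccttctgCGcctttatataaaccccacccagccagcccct
The upper *Grb10* window holds 40 CG and the lower one 8. The windows of *Mest* and *Meg3* are those of their starts richest in CG, with 14 and 10, while other starts of the same genes hold down to 7 (*Mest*) and 0 (*Meg3*). The median over all 32851 RefSeq promoters was 6, and 98.9% of them held at most as many as the upper *Grb10* window.

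The letters CCGGAAG, the core of an ETS-type site, were searched on both strands of the same windows. None of the 14 windows of these genes held them, against 6.91% of all promoters. Among other imprinted genes they were found in 2 of 40 windows of maternally expressed genes (*Ampd3* and *Tspan32*) and in 4 of 35 windows of paternally expressed genes (*Jade1*, *Mcts2*, *Mkrn3* and *Sfmbt2*). The core itself contains a CG. Genes with the match moved either way: of these 6, *Mcts2*, *Sfmbt2* and *Tspan32* were called lower with dTAG13 at 1 stage or more, *Ampd3* and *Jade1* were called higher in 2iES cells, and *Mkrn3* was not called. The call of *Jade1* was lost with DESeq2 (adjusted p = 0.0724) and with no count filter (log2 fold change 0.96). Without DMSO replicate 1 its log2 fold change was 0.57. The windows of 2 that fell and 1 that rose are shown, with the match in capitals.
Mcts2, chr2:152686898-152687147 (plus strand): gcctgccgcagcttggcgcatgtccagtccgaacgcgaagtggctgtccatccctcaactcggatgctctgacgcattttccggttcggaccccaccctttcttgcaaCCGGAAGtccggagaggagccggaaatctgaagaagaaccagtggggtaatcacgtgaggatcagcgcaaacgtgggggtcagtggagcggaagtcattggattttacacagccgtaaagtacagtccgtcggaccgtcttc
Sfmbt2, chr2:10370201-10370450 (plus strand): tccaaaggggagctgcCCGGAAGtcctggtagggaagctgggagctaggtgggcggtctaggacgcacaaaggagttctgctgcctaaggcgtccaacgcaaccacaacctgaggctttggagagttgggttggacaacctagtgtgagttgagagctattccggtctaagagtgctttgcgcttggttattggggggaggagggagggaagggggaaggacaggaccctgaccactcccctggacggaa
Ampd3, chr7:110768372-110768621 (plus strand): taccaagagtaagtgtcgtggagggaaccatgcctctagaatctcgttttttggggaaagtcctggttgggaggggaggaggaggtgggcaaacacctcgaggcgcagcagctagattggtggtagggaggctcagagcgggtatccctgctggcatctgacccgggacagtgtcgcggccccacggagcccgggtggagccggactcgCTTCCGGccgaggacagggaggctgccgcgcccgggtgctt

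Expected counts per library summed to between 9457933 (a morula DMSO library) and 27660132 (a 2iES DMSO library). *Gabpa* mRNA is still made when the protein is degraded, so it does not check the treatment. Its FPKM (fragments scaled to transcript length and library size) was 90.94 to 125 with DMSO and 152.6 to 170.14 with dTAG13 in late two-cell embryos, 8.79 to 10.2 and 15.88 to 16.56 in morulae, 11.03 to 12.0 and 29.86 to 30.36 in ICMs, and 7.05 to 8.67 and 14.47 to 14.66 in 2iES cells. The cell type markers differed between the E4.5 ICM groups. The summed FPKM of 12 trophectoderm markers was 122 to 129 with DMSO and 988 to 991 with dTAG13, that of 12 epiblast markers 1030 to 1040 and 596 to 608, and that of 12 primitive endoderm markers 835 to 837 and 1560 to 1570. By the call rule given below, 9 trophectoderm markers were higher and 7 epiblast markers lower, and *Dlx3* was at 0 in both groups. In morulae the trophectoderm sums were 550 to 578 and 607 to 664, and in 2iES cells 184 to 220 and 250 to 264. The study took these ICMs at the mid-blastocyst stage, and reports that epiblast cell numbers did not yet differ between the treatments then. From bulk libraries alone, fewer cells of a type and less RNA per cell cannot be told apart.

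The 10 genes had different histories in control embryos. *Cdkn1c* was highest at the late two-cell stage, with 52.1, 28.9 and 33.0 FPKM in the 3 DMSO libraries, and stood at 8.14 and 5.47 in morulae, 4.77 and 6.88 in the E4.5 ICM and 6.96 and 4.93 in 2iES cells. The late two-cell libraries do not overlap with those of any later stage, and the later stages overlap with each other. *Mest* went from 9.33, 13.7 and 12.9 FPKM at the late two-cell stage to 1.95 and 0.95 in morulae, and then to 2.75 and 3.56 in the ICM and 31.9 and 28.9 in 2iES cells. *Plagl1* was at 3.05, 2.39 and 2.55 FPKM, then 0.83 and 0.49, then 0.25 and 0.29, and at 1.78 and 3.89 in 2iES cells. The ICM was thus its lowest stage, whereas that of *Mest* was the morula, and its late two-cell and 2iES libraries overlap.

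*H19* was near or at 0 before the blastocyst. It had 0, 4 and 0 counts in late two-cell embryos and 0 in both morula libraries, against 4.87 and 4.06 FPKM in the ICM (123 and 92 counts) and 7.04 and 7.29 in 2iES cells. Set against 3 counts per library, the limit that a count of 0 allows, ICM libraries were at least 18.1-fold higher than morulae in counts scaled to library size. *Igf2*, its neighbour, was at 0.05, 0 and 0 FPKM in late two-cell embryos, 1.16 and 0.60 in morulae, 2.90 and 1.26 in the ICM and 4.86 and 4.90 in 2iES cells, and the ICM libraries lie above both earlier stages. *Igf2* shares 61.9% of its 31-base words with *Gm49394*, which overlaps it on the same strand, so reads could be divided between them. The mean FPKM of *Gm49394* was 0.0167 in late two-cell dTAG13 libraries and 0 in every other group.

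*Meg3* and *Grb10* were highest in the ICM. *Meg3* was at 3.44, 2.67 and 3.68 FPKM in late two-cell embryos, 5.67 and 6.60 in morulae and 23.1 and 28.2 in the ICM, and had 0 counts in both 2iES DMSO libraries. Against 3 counts per library, 2iES cells were at least 223-fold lower than the ICM. *Grb10* was at 1.87, 3.18 and 2.20 FPKM, then 4.76 and 2.67, then 12.0 and 12.7, and at 4.17 and 4.40 in 2iES cells. *Igf2r* was highest in morulae, at 12.6 and 9.15 FPKM, against 4.53, 3.19 and 4.04 before and 3.23 and 3.15 after, and it was lowest in 2iES cells, at 0.52 and 0.51. *Peg3* varied least, between 1.06 and 2.36 FPKM over all 9 DMSO libraries. *Peg10* was near the limit of detection in embryos, at 0.02 to 0.13 FPKM, and at 1.41 and 1.74 in 2iES cells. Stage and culture cannot be told apart for 2iES cells. By the rule given below, of the 10 genes *Cdkn1c*, *Mest* and *Plagl1* were called lower and *Igf2r* and *Meg3* higher from the late two-cell stage to the morula, where 27.7% and 22.6% of all genes tested were. From the morula to the ICM *Igf2r* was called lower and *H19*, *Grb10* and *Meg3* higher (all genes, 13.2% and 16%). From the ICM to 2iES cells *Grb10*, *Igf2r* and *Meg3*, all maternally expressed, were called lower, and 4 of the 5 paternally expressed genes higher (all genes, 12.7% and 12%).

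**Figure D1:**
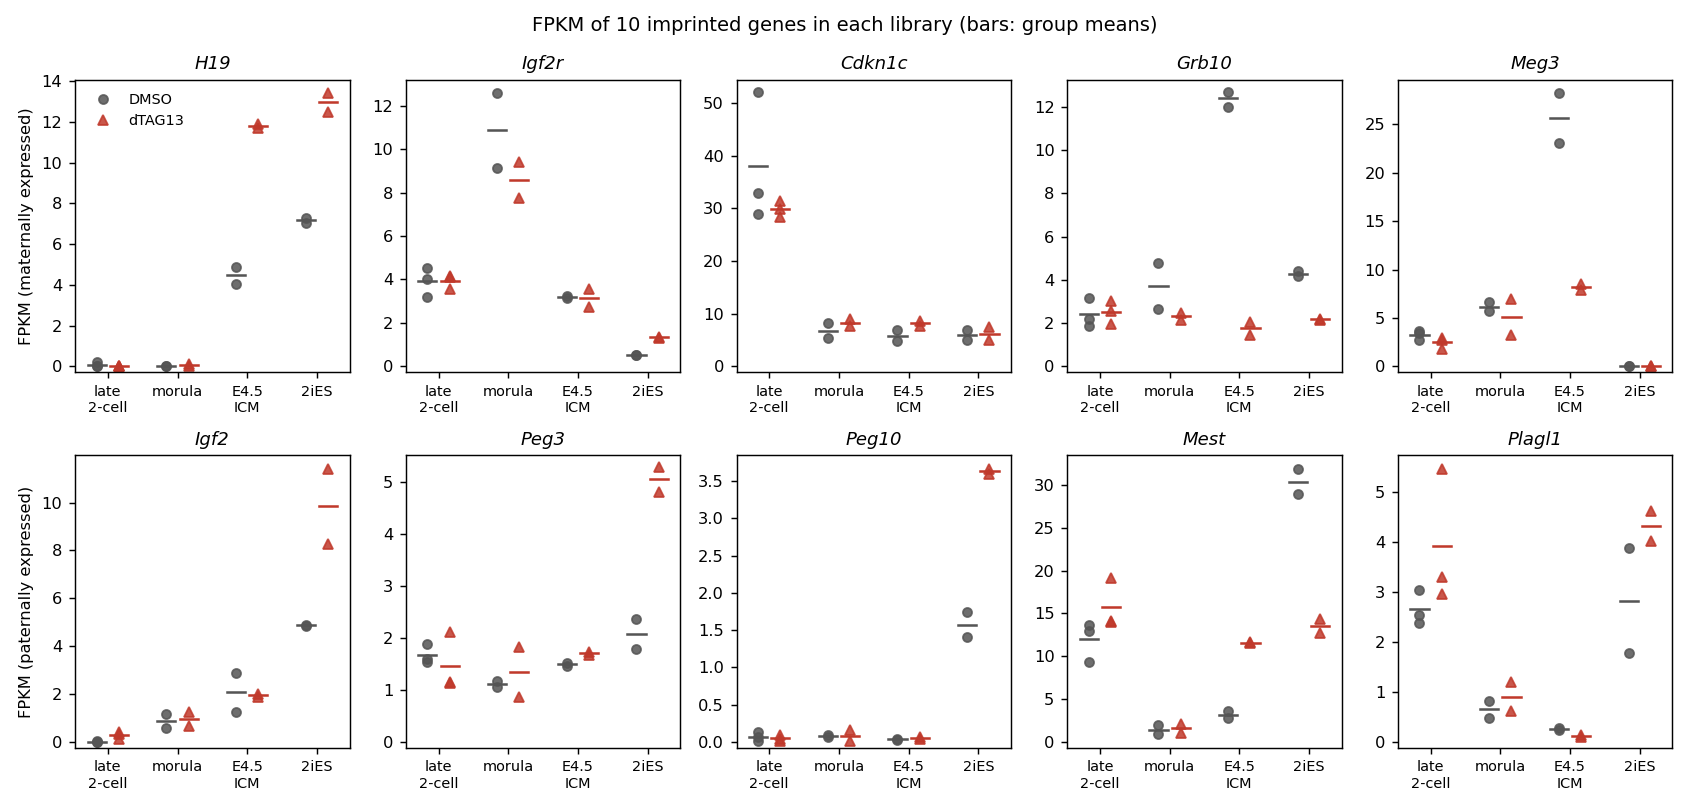
FPKM of the 10 genes (vertical axes, linear, a scale for each gene) in each library of the 4 stages, with DMSO as circles, dTAG13 as triangles and group means as bars. The ICM points of *H19*, *Mest*, *Grb10* and *Meg3* separate by treatment, and *Mest* separates in the opposite direction in 2iES cells.

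At the late two-cell stage no gene of the 10 was called. A gene was called where the quasi-likelihood test of edgeR gave an adjusted p-value under 0.05 (Benjamini-Hochberg, over all genes tested), counts differed by 2-fold or more, and 1 of the groups had a mean FPKM of 1 or more. Of 17421 genes tested, 3.63% were called lower and 0.476% higher, and 8 of the 10 genes were tested, *H19* and *Igf2* having too few counts. *Peg10* had a log2 fold change of -0.61 (standard error, SE, 0.84) from at most 19 counts in any library, and with 1 library left out it ranged from -1.31 to 0.03. *Plagl1* was at 5.47, 2.97 and 3.31 FPKM with dTAG13 against 3.05, 2.39 and 2.55, a log2 fold change of 0.61 (SE 0.29), and its libraries overlap. *Mest* was at 14.0, 19.1 and 14.1 FPKM with dTAG13, all above the DMSO libraries, and its log2 fold change was 0.32 (SE 0.21). It was the only gene of the 8 tested whose FPKM did not overlap between the groups, and 14.8% of all genes tested were higher without overlap. *Cdkn1c* was at 28.3, 29.9 and 31.5 FPKM, a log2 fold change of -0.43 (SE 0.16). The median log2 fold change of those 8 was -0.28, against 0.02 for all genes tested.

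In morulae no gene of the 10 was called either, and few genes were called at all (0.198% lower and 0.154% higher of 13667). Without TMM scaling, 76 genes were called lower and 34 higher, against 27 and 21 with it. *Grb10* was at 2.48 and 2.16 FPKM with dTAG13 against 4.76 and 2.67 with DMSO, a log2 fold change of -0.69 (SE 0.33) that was -0.12 without DMSO replicate 1 and -1.10 without DMSO replicate 2. Its groups do not overlap, and 27.7% of all genes tested were lower without overlap. *Cdkn1c* had a log2 fold change of 0.61 (SE 0.35) and *Meg3* one of -0.49 (SE 0.39), with overlapping libraries in both. That of *Meg3* was 0.01 without dTAG13 replicate 1 and -1.16 without dTAG13 replicate 2. The standard errors of the 8 genes tested were 0.21 to 0.72.

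In the E4.5 ICM, *H19* and *Mest* were higher with dTAG13 and *Grb10* and *Meg3* lower by the thresholds, 4 of the 9 genes that entered the fit. Of all 15840 genes tested, 12.1% were called higher and 13.2% lower, and since the genes were chosen with these values known, nothing is read from their share. *Grb10* was at 12.0 and 12.7 FPKM with DMSO and 1.46 and 2.04 with dTAG13, a log2 fold change of -2.35 (SE 0.11), or 5.09-fold lower in counts. *Meg3* was at 23.1 and 28.2 FPKM with DMSO and 7.90 and 8.47 with dTAG13, a log2 fold change of -1.32 (SE 0.10). The ICM was the stage at which both transcripts were highest in controls, and the dTAG13 values of *Meg3* lie near those of control morulae.

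*Mest* was at 2.75 and 3.56 FPKM with DMSO and 11.7 and 11.6 with dTAG13, a log2 fold change of 1.86 (SE 0.11). *H19* was at 4.87 and 4.06 FPKM and at 11.9 and 11.7, a log2 fold change of 1.29 (SE 0.14). Both noncoding RNAs of the list therefore changed in opposite directions. Over the 14 alternative settings run, the log2 fold changes were 1.71 to 1.99 for *Mest*, 1.13 to 1.44 for *H19*, -2.57 to -2.15 for *Grb10* and -1.41 to -1.21 for *Meg3*. In the same libraries 9 of 11 trophectoderm markers tested were called higher (median log2 fold change 2.67), 7 of 12 epiblast markers lower and 2 of 12 primitive endoderm markers higher, and their part in these changes was not tested.

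The other genes moved less in the ICM. *Igf2*, next to *H19*, was at 2.90 and 1.26 FPKM with DMSO and 2.02 and 1.89 with dTAG13, a log2 fold change of -0.11 (SE 0.27), so that the dTAG13 libraries lie between the DMSO libraries. *Igf2r* was at 3.23 and 3.15 and at 3.56 and 2.72 FPKM, a log2 fold change of -0.23 (SE 0.08). *Peg3* was at 1.47 and 1.52 and at 1.74 and 1.68 FPKM (log2 fold change 0.15, SE 0.11). *Plagl1* was low, at 0.25 and 0.29 and at 0.15 and 0.10 FPKM, and its log2 fold change of -1.12 (SE 0.39) rests on 10 to 28 counts per library. *Peg10* had at most 8 counts and was not tested. *Cdkn1c* was at 4.77 and 6.88 and at 7.71 and 8.60 FPKM, which do not overlap, yet its counts were 150 and 154 against 154 and 164 and its log2 fold change was 0.11 (SE 0.15). The 2 scales differ because RSEM assigned it effective lengths of 1512 and 1163 bases with DMSO and 1093 and 1013 with dTAG13.

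On the FPKM scale, 3 of the 9 genes tested were lower without overlap and 4 were higher, against 39.3% and 45.5% of all genes tested. The biological coefficient of variation was 0.0237 in the ICM, against 0.284 in late two-cell embryos, 0.213 in morulae and 0.159 in 2iES cells. In the ICM 76.9% of all genes had an adjusted p-value under 0.05.

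The effective length of *Grb10*, which RSEM derives from the isoforms it assigns reads to, was longer with dTAG13 at the later stages. It was 2830 and 2635 bases in ICM DMSO libraries and 4057 and 3887 with dTAG13, and 2451 and 3063 against 4280 and 4172 in 2iES cells. Neither pair of groups overlaps. Lengths were longer without overlap for 19.8% of all genes tested in the ICM and 44.5% in 2iES cells, and a ratio of mean lengths at least as large as that of *Grb10* (1.45 and 1.53) was found for 2.77% and 1.52%. At the late two-cell stage it was 3990, 3121 and 4778 against 3618, 3440 and 2809, and in morulae 4398 and 3829 against 3814 and 4112, with overlap at both stages. FPKM divides by this length, so *Grb10* fell from a mean of 4.29 to 2.17 FPKM in 2iES cells while its counts changed by a log2 fold change of -0.41 (SE 0.19), which was not called. Counts were 283 and 370 with DMSO and 231 and 184 with dTAG13. Which isoforms differ was not analysed here, since the tables hold a value for each gene.

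**Figure D2:**
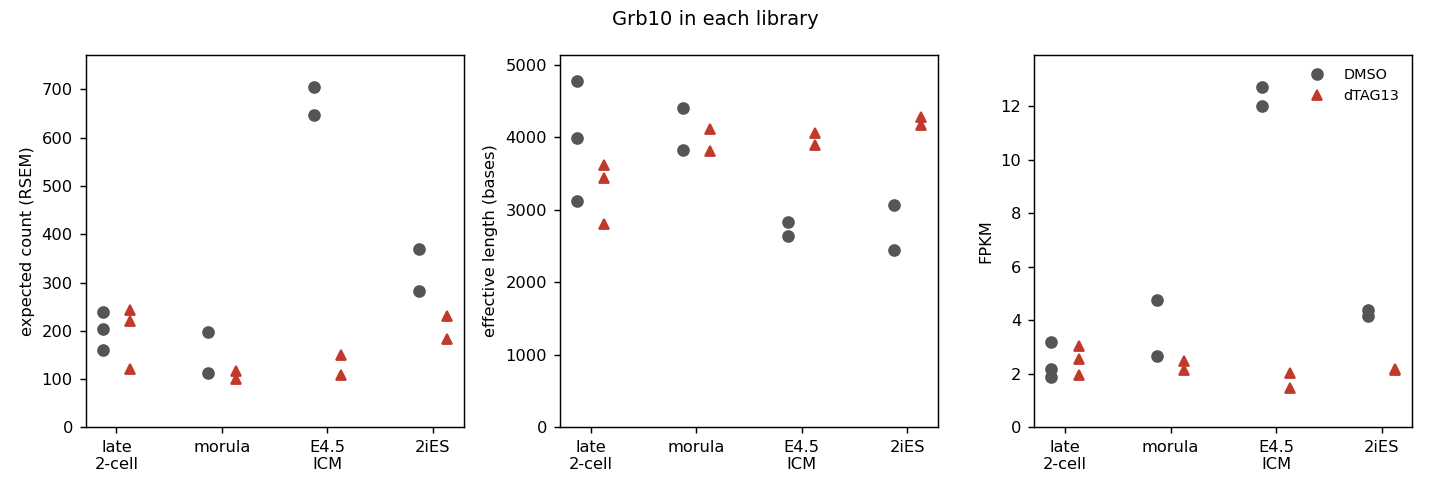
*Grb10* in each library: RSEM expected count (left), effective length in bases (middle) and FPKM (right), with DMSO as circles and dTAG13 as triangles. In the E4.5 ICM and in 2iES cells every dTAG13 library has a longer effective length (3887 to 4280 bases) than every DMSO library (2451 to 3063 bases).

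In 2iES cells, 4 genes were called higher (*Igf2*, *Igf2r*, *Peg3* and *Peg10*) and *Mest* was called lower, 5 of the 9 genes that entered the fit, with 12.4% and 15.6% of all 15511 genes called higher and lower. With upper-quartile scaling 2467 genes were called higher and 1994 lower, against 1924 and 2415 with TMM, and the median of all genes moved by 0.18 (log2). *Mest* was at 31.9 and 28.9 FPKM with DMSO and 14.3 and 12.7 with dTAG13, a log2 fold change of -1.23 (SE 0.14). It stayed lower under all 14 alternatives, between -1.35 and -1.04.

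*Igf2r* was at 0.52 and 0.51 FPKM with DMSO and 1.29 and 1.37 with dTAG13, a log2 fold change of 1.32 (SE 0.18), and *Igf2*, whose product it binds, was at 4.86 and 4.90 and at 8.29 and 11.4 FPKM, a log2 fold change of 1.07 (SE 0.18). *Peg3* was at 1.79 and 2.36 and at 4.81 and 5.29 FPKM, a log2 fold change of 1.23 (SE 0.18). *Peg10* was at 1.41 and 1.74 and at 3.60 and 3.66 FPKM, a log2 fold change of 1.15 (SE 0.17). In these 4 genes every dTAG13 library was above every DMSO library. *Igf2r* passes the FPKM threshold through the dTAG13 group alone, and was not called where the threshold applied to the mean of both groups. The call of *Igf2* was lost with no count filter, with all libraries in 1 fit and without DMSO replicate 2 or dTAG13 replicate 2 and that of *Peg10* without DMSO replicate 1, with log2 fold changes down to 0.94 and 0.99.

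*H19* was at 7.04 and 7.29 FPKM and at 13.4 and 12.5, but its log2 fold change in counts was 0.79 (SE 0.17), under the 2-fold threshold. *Plagl1* was at 1.78 and 3.89 and at 4.62 and 4.03 FPKM, and its log2 fold change of 0.53 (SE 0.32) became 1.14 without DMSO replicate 2 and 0.06 without DMSO replicate 1. The DMSO replicates of *Plagl1* thus differ by more than the groups do. *Cdkn1c* was at 6.96 and 4.93 and at 5.02 and 7.38 FPKM, a log2 fold change of 0.10 (SE 0.24). *Meg3* had 0 counts in both DMSO libraries and 1 and 2 with dTAG13 and was not tested. On the FPKM scale, 6 of the 9 genes tested were higher without overlap and 2 were lower, against 41.8% and 36.9% of all genes. The median log2 fold change of the 9 genes was 0.79, and that of all genes tested 0.03. In 2iES cells the primitive endoderm markers summed to 5.65 to 8.85 FPKM with DMSO and 9.31 to 10.6 with dTAG13 and the epiblast markers to 799 to 929 and 615 to 661, and their part in these values was not tested.

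**Figure D3:**
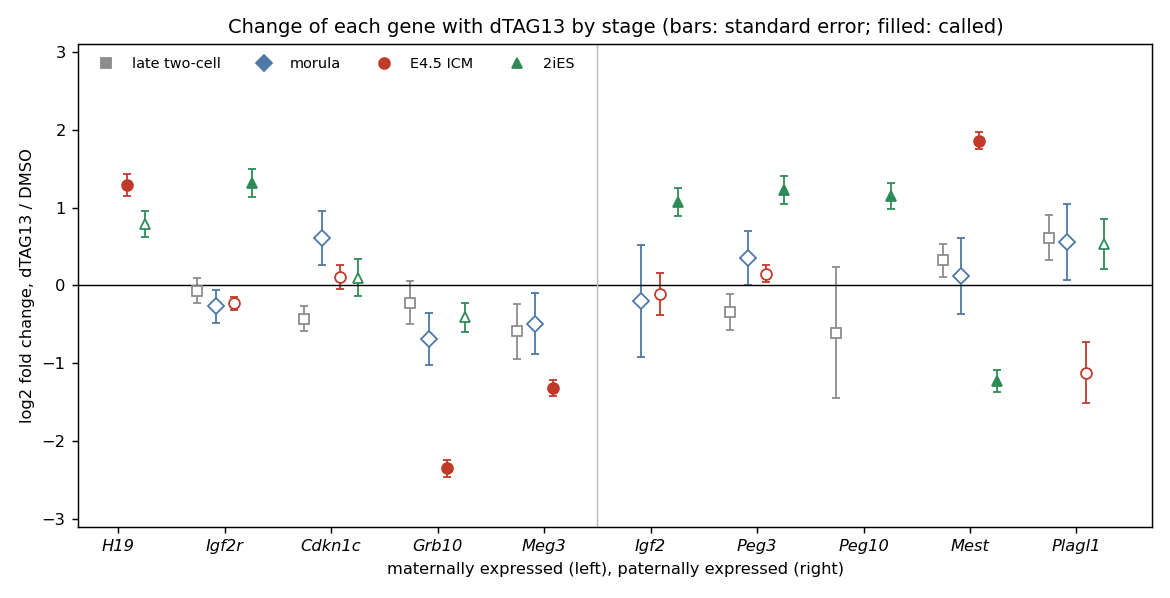
Log2 fold change of dTAG13 over DMSO (vertical axis, from edgeR) for each gene tested at each stage, with standard errors as bars and called genes filled. *Mest* lies at 1.86 in the E4.5 ICM and at -1.23 in 2iES cells, and no symbol is filled at the 2 earlier stages.

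The effects in the ICM and in 2iES cells were set side by side in 1 fit of the 8 libraries, as the ICM log2 fold change minus the 2iES log2 fold change. The difference was 3.06 (SE 0.17) for *Mest*, the only gene of the list called at both stages. It was -1.96 (SE 0.25) for *Grb10*, -1.57 (SE 0.17) for *Igf2r*, -1.20 (SE 0.33) for *Igf2*, -1.09 (SE 0.21) for *Peg3* and 0.48 (SE 0.21) for *H19*. For *Cdkn1c* it was -0.01 (SE 0.27). *Plagl1* (-1.66, SE 0.63) and *Peg10* (-0.6, SE 0.54) had few counts in the ICM. The difference of *Meg3* (-5.17, SE 1.38) rests on 2iES libraries with at most 2 counts. These differences are given as descriptions, without p-values. Dose, length of treatment and cell type all differ between the ICM and 2iES groups and cannot be told apart.

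The genes with the most similar pattern were found by Pearson's r of log2(FPKM + 1) over the 18 libraries, among 19450 genes, as a description. They were *Gpx8* (0.988) and *Itm2a* (0.984) for *H19*, *Gldc* (0.979) and *Ppm1b* (0.968) for *Igf2r*, *Ell2* (0.983) and *Asb12* (0.977) for *Cdkn1c*, *Chst14* (0.919) and *Apold1* (0.919) for *Grb10*, and *Xlr5a* (0.954) and *Mrpl48-ps* (0.948) for *Meg3*. For the paternally expressed genes they were *Atpif1* (0.975) and *Tbca* (0.974) for *Igf2*, *4921524J17Rik* (0.944) and *Fkbp10* (0.923) for *Peg3*, *Smr3a* (0.997) and *Mup6* (0.996) for *Peg10*, *Rtkn2* (0.960) and *Paip1* (0.951) for *Mest*, and *Dhx9* (0.956) and *Rfc1* (0.944) for *Plagl1*. The 18 points are libraries of 4 stages and share stage and treatment, and none of these genes is on the lists of imprinted genes used here.

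The other imprinted genes were tested as lists of 33 maternally and 31 paternally expressed genes. At the late two-cell stage, *Impact*, a regulator of translation, fell from 20.6, 16.7 and 15.7 to 5.19, 3.96 and 2.56 FPKM (log2 fold change -2.25, SE 0.19, adjusted p = 3.76e-05). *Mcts2*, a retrogene within an intron of *H13*, fell by 1.95 on the log2 scale (SE 0.22, adjusted p = 0.000265), and *H13*, which encodes a signal peptide peptidase, fell by 1.46 (SE 0.17, adjusted p = 0.000292). *Tfpi2*, a protease inhibitor gene, rose by a log2 fold change of 2.49 (SE 0.50, adjusted p = 0.0098), a call lost without dTAG13 replicate 2 (adjusted p = 0.0535). These were 2 of 25 maternally expressed genes tested, 1 in each direction, and 2 of 23 paternally expressed ones, both lower, where 3.63% of all genes fell and 0.476% rose. In morulae 1 of 18 paternally expressed genes tested, *Sfmbt2*, a Polycomb-group gene, fell (mean FPKM 7.93 to 2.14, log2 fold change -1.65, SE 0.24, adjusted p = 0.00831), and none of 16 maternally expressed genes was called. Without DMSO replicate 2, *Snrpn* and *Snurf* were called higher in morulae.

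In the ICM, 4 maternally expressed genes fell and 2 rose of 21 tested, and 4 paternally expressed genes fell and 2 rose of 22, where 13.2% of all genes fell and 12.1% rose. The median log2 fold changes were -0.07 and 0.02. *Impact* fell most (mean FPKM 10.0 to 1.15, log2 fold change -3.05, SE 0.12, adjusted p = 1.23e-23), followed by *Zdbf2* (2.95 to 1.20, -2.16, SE 0.16, adjusted p = 5.79e-15), *Sfmbt2* (6.13 to 0.77, -2.08, SE 0.13, adjusted p = 3.09e-17) and *Cobl*, which encodes an actin nucleator (17.3 to 4.49, -1.96, SE 0.08, adjusted p = 3.35e-23). *Ppp1r9a*, encoding an actin-binding protein, rose by a log2 fold change of 2.40 (SE 0.24, adjusted p = 2.47e-11), as did *Osbpl5* (2.14, SE 0.23, adjusted p = 9.78e-11), *Airn* (1.32, SE 0.36, adjusted p = 0.00139) and *Smoc1* (1.19, SE 0.17, adjusted p = 7.92e-08). *Ascl2*, a transcription factor gene of the trophoblast lineage, fell (log2 fold change -1.18, SE 0.31, adjusted p = 0.000861). The trophectoderm markers rose in the same libraries, and their part was not tested. With all libraries in 1 fit the calls of *Ascl2* (adjusted p = 0.0545) and *Airn* (adjusted p = 0.20) were lost. That of *Ascl2* was also lost without dTAG13 replicate 1 (log2 fold change -0.89). Without that replicate 7 genes of both lists were called higher, against 4 with it.

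In 2iES cells, 4 maternally expressed genes fell and 3 rose of 23 tested, and 2 paternally expressed genes fell and 5 rose of 24, where 15.6% of all genes fell and 12.4% rose. The median log2 fold changes were 0.02 and 0.26. *Tspan32* (log2 fold change -2.76, SE 0.30, adjusted p = 0.000506), *Tssc4* (-2.41, SE 0.23, adjusted p = 0.0003), *Ndn* (-2.09, SE 0.24, adjusted p = 0.00062) and *Copg2* (-2.02, SE 0.21, adjusted p = 0.000385) fell most. *Usp29*, a ubiquitin protease gene beside *Peg3*, rose from a mean of 0.18 to 1.34 FPKM (log2 fold change 3.16, SE 0.37, adjusted p = 0.000637), a call lost where the FPKM threshold applied to the mean of both groups. *Ampd3*, *Nap1l5* and *Zrsr1* rose by log2 fold changes of 2.05 (SE 0.34, adjusted p = 0.00279), 1.84 (0.27, 0.00159) and 1.32 (0.33, 0.0138). The call of *Zrsr1* was lost without DMSO replicate 1 or dTAG13 replicate 2 (adjusted p = 0.0714 in the second case), and without either replicate 5 genes of both lists were called higher, against 8. *Impact* fell here too (mean FPKM 22.1 to 9.34, log2 fold change -1.15, SE 0.18, adjusted p = 0.00193), but its log2 fold change was -0.95 without DMSO replicate 2 and -0.96 with upper-quartile scaling.

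The difference between the ICM and 2iES effects was tested for these genes in the same fit of 8 libraries. Of 25 maternally expressed genes tested, 7 had a higher and 5 a lower log2 fold change in the ICM at an adjusted p-value under 0.05, and of 26 paternally expressed genes 3 had a higher and 11 a lower one, against 20.1% and 21.8% of all genes tested. *Zdbf2* fell in the ICM and rose in 2iES cells (mean FPKM 8.54 to 13.7), a difference of -3.30 (SE 0.34, adjusted p = 0.000108). *Ascl2* fell in the ICM and rose in 2iES cells (5.90 to 12.5), a difference of -2.25 (SE 0.37, adjusted p = 0.00124). Without DMSO replicate 1 the 2iES log2 fold change of *Zdbf2* was 0.77, and without DMSO replicate 2 that of *Ascl2* was 0.78, both under the 2-fold threshold. *Sfmbt2* differed by -1.91 (SE 0.31, adjusted p = 0.00119), *Impact* by -1.92 (SE 0.25, adjusted p = 0.000366) and *Ppp1r9a* by 2.22 (SE 0.29, adjusted p = 0.000369). For *Osbpl5*, *Airn*, *Ddc* and *Jade1* the difference did not pass. Without ICM dTAG13 replicate 2 or 2iES dTAG13 replicate 2, 10 genes had a lower effect in the ICM, against 16 with all libraries.

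**Figure D4:**
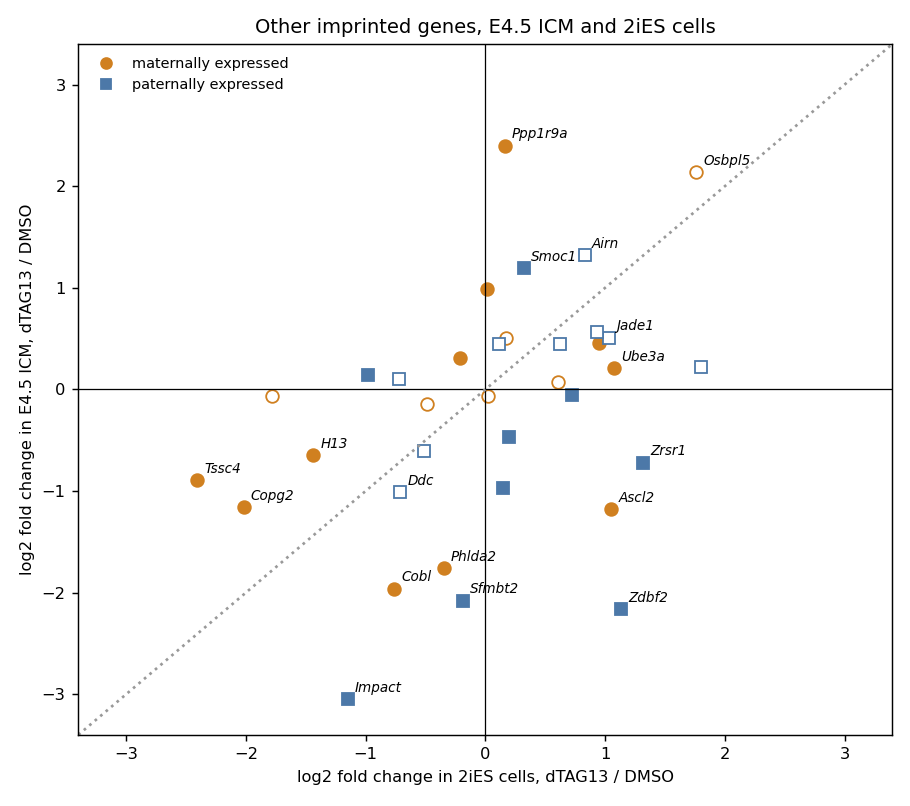
Log2 fold change of dTAG13 over DMSO in 2iES cells (horizontal axis) and in the E4.5 ICM (vertical axis) for other imprinted genes tested at both stages. Of these 39 genes, those with changes beyond the axes are not visible. Among them are *Nap1l5* (7.84), *Asb4* (8.86) and *Tspan32* (-4.69) in the ICM. Circles mark maternally and squares paternally expressed genes. Symbols are filled where the difference between stages had an adjusted p-value under 0.05 (23 of the 39). The genes called at either stage (19 in all) are named where visible. *Zdbf2* and *Ascl2* lie below zero on the vertical axis and above zero on the horizontal one.

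Neighbours in the same clusters were compared with the 10 genes. *Rian* and *Mirg*, noncoding RNAs downstream of *Meg3*, were at 4.14 and 4.71 and at 2.56 and 2.67 FPKM in ICM DMSO libraries and at 6.05 and 4.55 and at 2.83 and 2.52 with dTAG13. Their log2 fold changes were -0.17 (SE 0.13, adjusted p = 0.229) and 0.01 (SE 0.30, adjusted p = 0.988), beside the -1.32 of *Meg3*. In 2iES DMSO libraries *Rian* was at 0 and 0.04 FPKM and *Mirg* at 0.01 and 0, like *Meg3* near or at 0. *Dlk1* stayed under 0.6 FPKM in all libraries and *Rtl1* at or under 0.03.

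*Copg2*, a coat protein gene that runs antisense to *Mest* over 23.1% of its exonic bases, was lower in the ICM (14.3 and 18.2 to 6.80 and 6.59 FPKM, log2 fold change -1.16, SE 0.09, adjusted p = 2.62e-14) and in 2iES cells. The libraries keep no strand, so reads of the shared stretch cannot be told apart. *Airn*, antisense to *Igf2r*, was at 0.72 and 0.67 FPKM in ICM DMSO libraries and 2.26 and 1.66 with dTAG13, where *Igf2r* did not change by 2-fold. In 2iES cells, where *Igf2r* was called higher, *Airn* was at 0.33 and 0.47 and at 0.90 and 0.92 FPKM (log2 fold change 0.83, SE 0.50, adjusted p = 0.198). *Sgce*, which lies head to head with *Peg10*, was at 11.9 and 13.5 FPKM in 2iES DMSO libraries and 20.7 and 27.3 with dTAG13 (log2 fold change 0.93, SE 0.19, adjusted p = 0.0057), under the 2-fold threshold, and was called with upper-quartile scaling (1.11) and without dTAG13 replicate 1 (1.10). *Phlda2*, from the cluster of *Cdkn1c*, fell in the ICM (19.4 and 16.6 to 5.93 and 5.07 FPKM, log2 fold change -1.76, SE 0.17, adjusted p = 1.27e-11) but was not called in 2iES cells (-0.35, SE 0.13, adjusted p = 0.0524), a tested difference of -1.43 (SE 0.17, adjusted p = 0.000253). *Kcnq1ot1*, the noncoding RNA of that cluster, was at 0.24 to 0.64 FPKM in embryos and had a log2 fold change of 0.22 in the ICM (SE 0.06, adjusted p = 0.00216). Its log2 fold change in 2iES cells was 1.8 (adjusted p = 0.0232), not called because its mean FPKM was under the threshold in both groups.

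Between control stages, 7 maternally expressed genes of the other list fell and 5 rose from the late two-cell stage to the morula, and 4 paternally expressed genes fell and 8 rose. All genes tested in this comparison were called in 27.7% (lower) and 22.6% (higher) of cases. *Usp29* fell from 43.8, 47.7 and 39.5 to 0.40 and 0.67 FPKM (log2 fold change -6.58, SE 0.25, adjusted p = 1.19e-09), while *Slc38a4*, an amino acid transporter gene, rose from a mean of 1.24 to 11.5 FPKM (3.67, SE 0.24, adjusted p = 5.11e-08) and *Sfmbt2* from 0.823 to 7.93 (4.29, SE 0.46, adjusted p = 3.7e-06). *Cobl* was at 4.18 FPKM at the late two-cell stage, had no counts in morulae (at least 46.1-fold lower) and was at 17.3 FPKM in the ICM (at least 169-fold higher). From the morula to the ICM, 9 maternally expressed genes rose and 1 fell, and 1 paternally expressed gene did each, where 16% of all genes were called higher and 13.2% lower. *Sgce* fell from a mean of 3.58 to 0.20 FPKM (-3.97, SE 0.66, adjusted p = 0.000429) and *Cd81* rose from 5.93 to 34.9 (2.41, SE 0.32, adjusted p = 7.37e-05). From the ICM to 2iES cells, 11 paternally expressed genes were higher and 2 lower, and 7 maternally expressed genes were higher and 4 lower, where 12% of all genes were called higher and 12.7% lower. Without TMM scaling these became 12 higher and 7 lower over both lists, against 18 and 6, and 1260 higher and 3864 lower over all genes, against 2381 and 2515. *Sgce* was 6.14 (log2) higher in 2iES cells (SE 0.66, adjusted p = 2.16e-05), *Ndn* 4.81 (SE 0.62, adjusted p = 7.46e-05) and *Phlda2* 3.12 (SE 0.28, adjusted p = 5.5e-06). The 3 comparisons share libraries.

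Factors that keep or erase imprints were read from a list of 20 genes. In the ICM, 5 of 19 tested fell and 1 rose, where 13.2% of all genes fell and 12.1% rose. *Zfp57*, a zinc-finger protein that binds methylated imprinting control regions, fell from 72.3 and 67.3 to 17.3 and 14.7 FPKM (log2 fold change -2.21, SE 0.05, adjusted p = 3.99e-30). *Naa10*, an acetyltransferase subunit, fell from 130 to 27.6 (-2.31, SE 0.06, adjusted p = 2.85e-29), *Dnmt1*, the maintenance DNA methyltransferase, from 18.7 to 7.71 (-1.34, SE 0.07, adjusted p = 8.16e-20), its partner *Uhrf1* from 44.0 to 19.8 (-1.23, SE 0.04, adjusted p = 3.34e-25) and *Tet1*, a dioxygenase that oxidizes methylcytosine, from 46.7 to 21.0 (-1.11, SE 0.04, adjusted p = 1.13e-23). *Dppa3*, whose product shields maternal methylation in the zygote, rose from 1530 to 5810 FPKM (1.87, SE 0.02, adjusted p = 4.18e-41). The median of the list was -0.39. Not all of these factors do the same: *Tet1* and *Dnmt1* act on methylation in opposite ways, and both fell. The epiblast markers fell in the same libraries, and their part was not tested.

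In 2iES cells *Naa10* (-3.06, SE 0.17, adjusted p = 4.76e-05), *Trim28*, the corepressor that ZFP57 recruits (-1.17, SE 0.10, adjusted p = 0.00017), and *Uhrf1* (-1.02, SE 0.12, adjusted p = 0.00061) fell, 3 of 19, and none was called higher, where 15.6% of all genes fell and 12.4% rose. *Tet3* (1.48, SE 0.30, adjusted p = 0.00629) had a mean FPKM under 1 in both groups. It did not rise in FPKM, with 0.29 for DMSO and 0.255 for dTAG13 and overlapping libraries. *Arid4a* (0.70, SE 0.15, adjusted p = 0.00807) had a change under 2-fold. *Zfp57* went from 157 to 134 FPKM (-0.45, SE 0.11, adjusted p = 0.0143) and was not called. The call of *Uhrf1* in 2iES cells was lost without TMM scaling (-0.97), with upper-quartile scaling (-0.83) with all libraries in 1 fit (-0.94) and without dTAG13 replicate 1, and that of *Trim28* with upper-quartile scaling (-0.99). In morulae *Uhrf1* was the only factor called (15.4 to 6.01 FPKM, -1.30, SE 0.22, adjusted p = 0.021), a call lost without dTAG13 replicate 1 (adjusted p = 0.0792). At the late two-cell stage none of 20 was called, and *Zfp445* (-0.76, adjusted p = 0.00633) and *Naa10* (-0.78, adjusted p = 0.0407) passed the p-value threshold but changed by less than 2-fold. That threshold was passed by 8.56% of all genes tested, called genes included. DNA methylation itself was not analysed here.

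**Figure D5:**
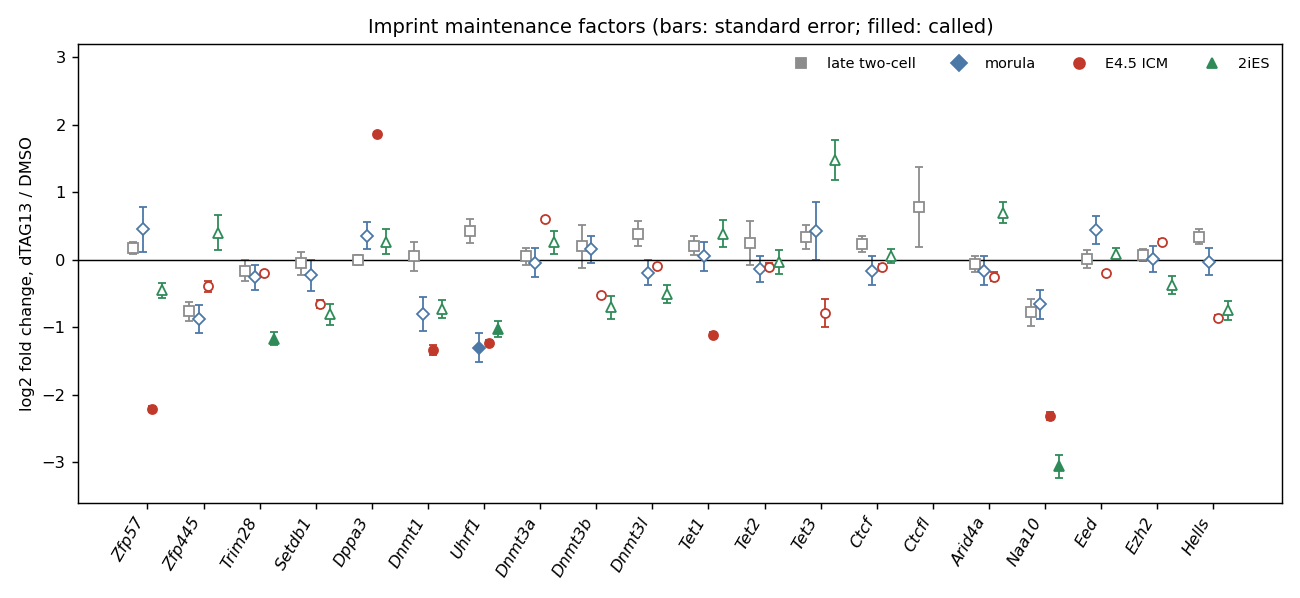
Log2 fold change of dTAG13 over DMSO (vertical axis, from edgeR) of the 20 imprint maintenance factors at each stage, with standard errors as bars and called genes filled. *Zfp57* and *Naa10* reach -2.21 and -2.31 in the E4.5 ICM, and *Naa10* reaches -3.06 in 2iES cells.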

How the data were processed

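Libraries were made with SMART-Seq v4 and Nextera XT, which keep no strand. The authors removed adaptors with Trimmomatic (0.39), mapped to GRCm38 with STAR and estimated expression with RSEM. Expected counts, TPM and FPKM of 55385 genes were deposited by the authors for each library. TPM served as levels only. FPKM served as levels, for the FPKM threshold of calls, for the overlap and direction of groups, and for the search for similar patterns. Of the identifiers, 55144 matched GENCODE M21 without version. The 10 genes and all lists were chosen with earlier results of these data known.

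The deposited expected counts, rounded, were tested stage by stage with edgeR 4.0.16 (R 4.3.3, limma 3.58.1) and TMM scaling. A gene entered where it reached 10 counts in a number of libraries equal to the smaller group's size. The 9 DMSO libraries shared a fit for comparisons between stages. DESeq2 1.42.0, other scalings, filters and thresholds, and leaving out each replicate were the alternatives. The scripts were tested on simulated data.

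Other genes named are, in each comparison, up to 4 called genes per direction with the largest log2 fold change, all where 5 or fewer were called, and neighbours of the 10 genes. *Gm49394*, *Ascl2*, *Ddc*, *Jade1*, *Mkrn3*, *Snrpn*, *Snurf*, *Zfp445*, *Commd1*, *Arid4a* and *Tet3*, and *Impact*, *Ube3a*, *Zdbf2* and *Zfp57* in 2iES cells, were named after their values were seen. The study calls its replicates biological, without saying whether they are separate cultures or litters, and p-values measure the spread between these libraries. Replicates differed by 1.62 and 1.67 times the sampling noise in the ICM groups and by 2.85 to 16.1 times in the others, and none was counted as a copy. The small ICM p-values thus rest on a spread near counting error, and may not cover the spread between separate batches of embryos. A limit of 3 counts stands for a count of 0 and covers counting error only, because the reads carry no molecular identifiers.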

Additional observations from a re-analysis of the deposited data

Results flagged for a closer look

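The genes below were flagged for unlike log2 fold changes with dTAG13 in the E4.5 ICM and in 2iES cells. The ICM value minus the 2iES one is given for each. Of the 10 listed genes, *Mest* (3.09 from the separate fits) and *Plagl1* (-1.65) had FPKM that moved in opposite directions at the 2 stages in every library. Their values were known when they were listed, so the difference is given without a p-value. That of *Plagl1* rests on 10 to 28 counts per ICM library, and its 2iES log2 fold change ranged from 0.06 to 1.14 with 1 library left out.

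Among other imprinted genes the difference was tested with edgeR. It passed for 7 whose FPKM moved in opposite directions in every library: *Ascl2* (-2.25, SE 0.37, adjusted p = 0.00124), *Zdbf2* (-3.30, SE 0.34, adjusted p = 0.000108), *Ppp1r9a* (2.22, adjusted p = 0.000369), *Snrpn* (1.10, adjusted p = 4.89e-05), *Commd1* (0.49, adjusted p = 0.00523), *Slc38a4* (-0.69, adjusted p = 0.00282) and *Usp29* (-8.86, adjusted p = 0.000595), the last with 0 counts in both ICM dTAG13 libraries. It also passed for 12 that were called at either stage without such a reversal. Of these *Phlda2* (-1.43), *Ube3a* (-0.87), *Cobl* (-1.22), *Ndn* (-4.30), *Impact* (-1.92), *Zrsr1* (-2.06) and *Sfmbt2* (-1.91) had the lower effect in the ICM, and *Tssc4* (1.5), *Copg2* (0.84), *H13* (0.78), *Nap1l5* (5.96) and *Smoc1* (0.85) the higher one. The adjusted p-values of *Ndn* (0.0478), *Smoc1* (0.0405) and *Ube3a* (0.0422) lie near the threshold. With DESeq2 those of *Ndn* (0.0543) and *Smoc1* (0.139) did not pass, and without TMM scaling that of *Ube3a* (0.0505) did not. *Usp29*, *Ndn* and *Nap1l5* had 0 counts in both libraries of an ICM group, so the size of their difference depends on the prior count.

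The summed FPKM of trophectoderm markers was 122 to 129 in ICM DMSO libraries and 988 to 991 with dTAG13, against 184 to 220 and 250 to 264 in 2iES cells, and its part in these differences was not tested. No group had the 4 libraries that the test for a library far from the others needs.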

How the results depend on the processing

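Counts of called genes among the 10 listed genes kept within 1.5 times of their values under every alternative run. Among other imprinted genes, those called higher at the late two-cell stage went from 1 to 2 with upper-quartile scaling, no count filter, DESeq2, all 18 libraries in 1 fit or the replicate block, and were 0 to 1 with a replicate left out. In morulae 0 to 2 were called higher with a replicate left out. Without the fold change threshold, 15 instead of 8 were called lower and 12 instead of 4 higher in the ICM, and 10 instead of 6 lower in 2iES cells. Without the FPKM threshold, 7 were called higher in the ICM and 13 instead of 8 in 2iES cells, and 5 in 2iES cells without a count filter. With a replicate left out, 4 to 7 were called higher in the ICM and 5 to 8 in 2iES cells. From the morula to the ICM in controls, 5 instead of 2 were lower without the fold change threshold, 6 with only these stages in the fit, and 2 to 4 with a replicate left out. The number with a lower effect in the ICM than in 2iES cells was 10 to 20 with a replicate left out, against 16. The cause was not tested.

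Over all genes, the morula counts went from 27 lower and 21 higher to 66 and 44 with DESeq2, 139 and 106 with no count filter, 109 and 91 with all libraries in 1 fit and 142 and 106 with the replicate block. The labels do not say whether equal replicate numbers mark paired samples, and the main fits did not pair them. Correlations of same-numbered deviations were 0.062, 0.122 and 0.133 at the late two-cell stage, where those of different numbers were -0.124 to 0.006. The same-numbered ones were 0.034 in morulae, -0.041 in the ICM and -0.227 in 2iES cells. For the late two-cell libraries, each correlated best with its own number. The block changed no call of the 10 genes. Upper-quartile scaling moved the median of all genes by 0.12 for late two-cell embryos, 0.10 in the ICM and 0.18 in 2iES cells. Genes under 10 counts could not be compared.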
